A study of Mus musculus with 25 samples.

Results

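The RNA levels of 8 mouse telomere genes were followed from the mature oocyte to the late 2-cell embryo: Terf1, Terf2, Terf2ip, Tinf2, Pot1a, Pot1b and Acd, which encode the shelterin proteins, and Tert, the catalytic subunit of telomerase. They were taken by symbol from the 24412 gene symbols in the files, and all 8 were present. The set was chosen by results of these data, the Terf1 values that differed between the genotypes in early 2-cell embryos. That contrast is therefore described here with no test for any of the 8 genes.

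Shelterin is the protein complex that coats the TTAGGG repeats at chromosome ends and keeps them from being read as DNA breaks. TRF1 (Terf1) and TRF2 (Terf2) bind the duplex repeats, RAP1 (Terf2ip) rides on TRF2, TIN2 (Tinf2) links TRF1 and TRF2, and TPP1 (Acd) ties TIN2 to the POT1 proteins on the overhang and brings in telomerase. Mouse has a pair of POT1 genes: Pot1a, which mainly holds back the ATR damage response, and Pot1b, which limits trimming of the end. In mouse preimplantation embryos telomeres are known to lengthen, in part by recombination.

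The 25 RNA-seq libraries came from knockout (KO) and wild-type (WT) material for Smarca4 (Brg1), an ATPase of the BAF chromatin remodelling complex. There were 2 KO and 3 WT libraries of MII oocytes (arrested in the second meiotic metaphase), 4 KO and 4 WT of PN3 zygotes (a stage with pronuclei), 3 KO and 3 WT of early 2-cell embryos (E2C), and 3 KO and 3 WT of late 2-cell embryos (L2C). Per the labels, oocytes came from females aged 8 to 12 weeks, which were C57BL/6 animals of the genotype Smarca4flox/flox Gdf9 Cre or were B6D2F1 hybrids, and Gdf9 is an oocyte-expressed gene. All were given 7 IU of PMSG and, 48 h later, 5 IU of hCG, and oocytes were collected for sperm injection (ICSI). The labels used here do not tie a library to a female strain or give the genotype of the sperm, so strain and genotype cannot be told apart. No label says that libraries came from separate females, so the spread behind the p-values is that between these samples and may be technical.

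Values are the deposited FPKM (fragments scaled to transcript length and library size) after rescaling of libraries, called scaled FPKM below. They allow levels to be compared between genes, but read depth is unknown and no counting error can be given. They are relative to the other RNA of a library, so a lower value and a larger pool of other RNA cannot be told apart. Smarca4 checked the labels: it was 0.219 and 0.221 in KO MII oocytes against 26.0 to 30.5 in WT, 0.222 to 0.448 in KO zygotes against 29.6 to 33.2 in WT, 0.767 to 5.12 in KO E2C embryos against 19.0 to 34.9 in WT, and 21.0 to 22.5 in KO L2C embryos against 48.5 to 90.4 in WT. The transcript was therefore present in KO L2C embryos, at a lower level than in WT. The libraries had FPKM sums of 216308 to 252440. WT E2C replicate 2 stood apart, with 9345 genes above 0 against 13585 to 16698 in the others, and results that rest on it are given with and without it.

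Terf1 (chromosome 1, 15805646 to 15844052, plus strand, GRCm38, GENCODE M21) was among the highest of the 8 transcripts in the oocyte. It measured 46.8 and 53.4 scaled FPKM in KO MII oocytes, against 53.9, 54.6 and 49.8 in WT MII oocytes. At PN3 it measured 59.7, 60.9, 41.3 and 40.5 in KO zygotes, against 48.2, 52.2, 45.7 and 41.7 in WT zygotes. The genotypes overlapped at both stages, and at PN3 replicates 1 and 2 were higher than replicates 3 and 4 in both genotypes.

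At E2C, Terf1 was lower than in any zygote library in both genotypes, as were 24.3% of genes in KO and 22.9% in WT. It measured 18.3, 19.0 and 28.1 in KO E2C embryos, against 10.1, 4.07 and 16.6 in WT E2C embryos. The KO library with the highest Terf1, replicate 3, also had the highest Smarca4 of the KO E2C libraries (5.12), and its part in the difference was not tested. Every KO library was above every WT library, as in 9.74% of the 12079 genes that passed the filter, counted in either direction. This is the contrast by which Terf1 was chosen, so the count is a description. The difference of means was 1.17 on the log2(scaled FPKM + 1) scale, a 2.25-fold higher level in KO, and 0.68 without WT E2C replicate 2. That scale understates the change of low genes.

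By L2C the genotypes overlapped again. Terf1 measured 31.2, 19.8 and 20.5 in KO L2C embryos, against 29.1, 18.6 and 16.9 in WT L2C embryos. Terf1 at E2C minus PN3 was -1.18 in KO and -2.26 in WT (log2), and the WT value was -1.77 without WT E2C replicate 2. Terf1 at L2C minus E2C was 0.12 in KO and 1.14 in WT, and the WT value was 0.65 without that library. These 4 differences involve the E2C values used in the choice and were not tested. The net difference from zygote to late 2-cell embryo did not use E2C: Terf1 was lower at L2C than at PN3 by 1.06 in KO (log2 difference -1.06, adjusted p = 0.00141) and by 1.12 in WT (-1.12, adjusted p = 0.000654). Both calls were made with limma and Benjamini-Hochberg adjustment over 12079 genes.

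**Figure D1:**
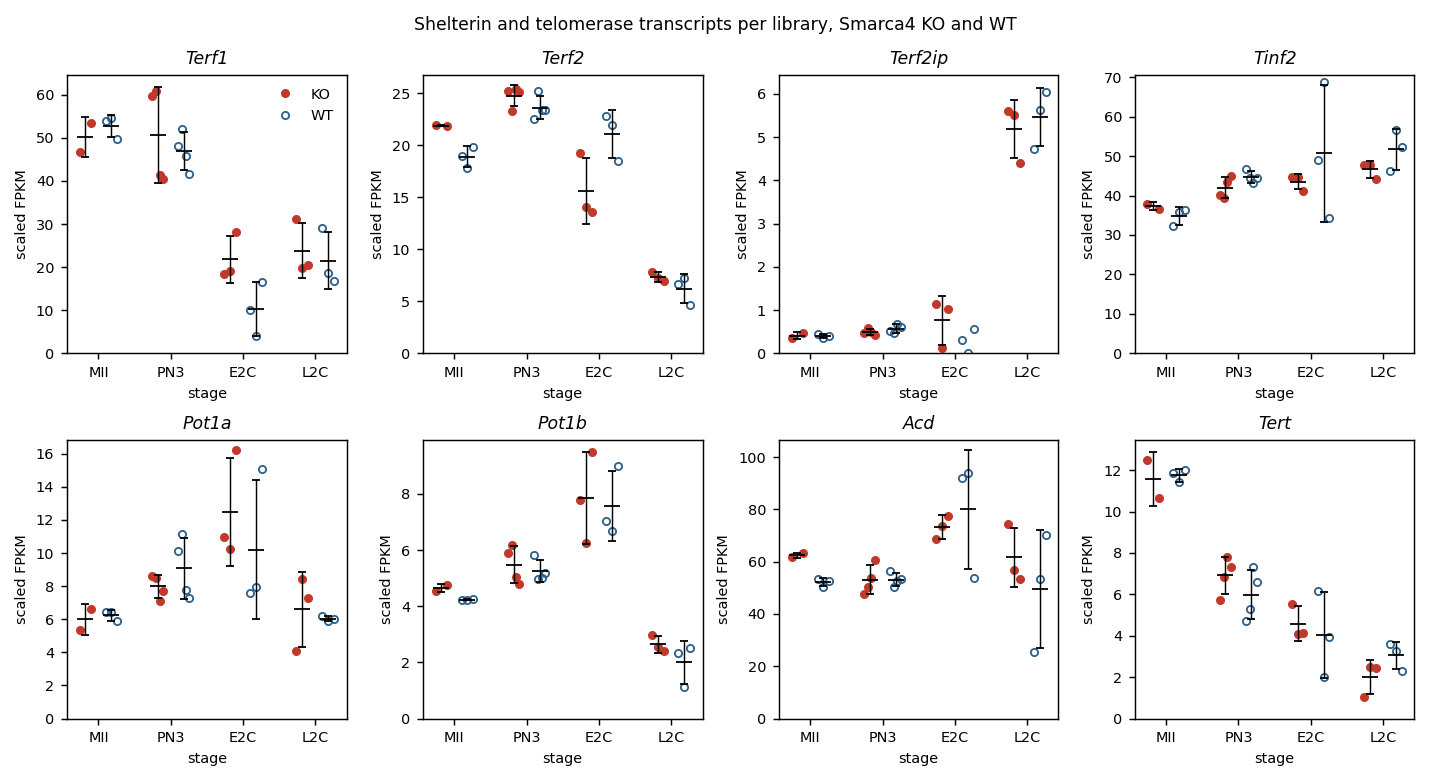
Scaled FPKM (vertical axis, linear from 0) of each of the 8 genes in every library, by stage along the horizontal axis, with KO as filled red points left of WT as open blue points. Black bars are the mean and SD of a group, left out for WT E2C in Terf2ip, where 1 library is listed at 0. Terf1 in E2C embryos lies between 18.3 and 28.1 in KO and between 4.07 and 16.6 in WT, while Terf2ip lies above 4 only in the L2C libraries.

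At the late 2-cell stage the other duplex binder, Terf2, was below all earlier libraries and its partner Terf2ip was above them. Both lie on chromosome 8 (GRCm38), Terf2 from 107069400 to 107096547 on the minus strand and Terf2ip from 112011398 to 112020528 on the plus strand. Their upstream regions are shown because these 2 members diverged most from each other. Each is the 250 bases before the RefSeq start (GRCm38.p6), 5′ to 3′ on the gene's strand, chr8:107096549-107096798 (minus strand) for Terf2 and chr8:112011109-112011358 (plus strand) for Terf2ip, with capitals marking the CCAAT box.
Terf2: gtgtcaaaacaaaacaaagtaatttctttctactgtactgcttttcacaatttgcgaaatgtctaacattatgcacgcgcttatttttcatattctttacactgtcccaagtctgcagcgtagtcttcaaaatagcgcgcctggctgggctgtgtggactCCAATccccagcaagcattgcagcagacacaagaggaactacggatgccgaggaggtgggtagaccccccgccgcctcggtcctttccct
Terf2ip: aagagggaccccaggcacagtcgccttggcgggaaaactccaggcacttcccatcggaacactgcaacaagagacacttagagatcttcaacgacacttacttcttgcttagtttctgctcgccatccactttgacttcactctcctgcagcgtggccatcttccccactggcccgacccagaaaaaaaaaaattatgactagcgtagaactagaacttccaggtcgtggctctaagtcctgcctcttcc

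The Terf2 region holds a CCAAT box, spelled CCAAT, 90 bases before the start, and neither region holds any other motif searched, on either strand. The others were the GC box spelled GGGCGG, the core promoter element spelled TATAAA, the nuclear receptor half-site spelled AAGGTCA, the homeobox motif spelled TAATCC and the telomere repeat TTAGGG. Of 32851 RefSeq promoters of the same length, 33.8% hold a CCAAT box and 32.7% a GC box. The motif is a description of the letters only. A promoter was matched for 7 members, all but Terf1, which was not searched. Of the 7, Acd, Pot1b and Terf2 hold a CCAAT box. Pot1a, Pot1b and Tert hold a GC box, and Pot1b alone holds the telomere repeat, 125 bases before its start. The telomere repeat is held by 9.32% of promoters.

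Terf2 was higher in zygotes than in oocytes in both genotypes, with the rise called in WT, and it fell by the late 2-cell stage in both. It measured 21.9 and 21.8 scaled FPKM in KO MII oocytes, against 18.9, 17.8 and 19.8 in WT MII oocytes. At PN3 it measured 25.2, 23.2, 25.4 and 25.1 in KO zygotes, against 22.5, 25.2, 23.3 and 23.4 in WT zygotes. The KO libraries were above the WT libraries at MII (19.6% of genes had all KO libraries higher there), and the genotypes overlapped at PN3. All WT zygote libraries were above all WT oocyte libraries, a rise of 0.31 (log2, adjusted p = 0.00337) that was not called with a shared spread (adjusted p = 0.146). The KO zygote libraries were likewise all above the KO oocyte libraries, a difference of 0.17 (adjusted p = 0.119). All zygote libraries were higher in 20.4% of genes in WT and 21.2% in KO. The change in the Terf2 KO effect from MII to PN3 was -0.14 (adjusted p = 0.609) and was not called.

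At E2C, Terf2 measured 19.2, 14.1 and 13.5 in KO embryos, against 22.8, 21.9 and 18.4 in WT embryos. At L2C it measured 7.85, 7.20 and 6.97 in KO embryos, against 6.70, 7.26 and 4.67 in WT embryos. All L2C libraries were below all libraries of the earlier stages, and the genotypes overlapped at E2C and at L2C. L2C libraries were all below PN3 libraries in 32% of genes in KO and 30.6% in WT. Terf2 was lower at L2C than at PN3 by 1.63 in KO (log2 difference -1.63, adjusted p = 4.81e-07) and by 1.79 in WT (-1.79, adjusted p = 1.36e-05), and the fall from E2C to L2C was also called in both genotypes (-0.98 in KO and -1.62 in WT). From PN3 to E2C it fell in KO (-0.65, adjusted p = 0.0048). In WT the same difference was -0.16 (adjusted p = 0.303), and whether the 2 differ was not tested because it would use the E2C contrast.

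Terf2ip stayed below 0.7 scaled FPKM in oocytes and zygotes, between 0.345 and 0.470 in KO MII oocytes and between 0.362 and 0.453 in WT MII oocytes. At E2C it measured 1.14, 0.117 and 1.03 in KO embryos, against 0.318, 0 and 0.567 in WT embryos, where the value listed at 0 is that of replicate 2. At L2C it measured 5.61, 5.51 and 4.41 in KO embryos, against 4.73, 5.62 and 6.05 in WT embryos. All 6 L2C libraries were above all earlier ones, and the genotypes overlapped at every stage. L2C libraries were all above PN3 libraries in 41.7% of genes in KO and 40.9% in WT.

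Terf2ip reached an FPKM of 1 in 7 of the 25 libraries, the 6 of L2C and KO E2C replicate 1, and so passed the filter only through the stage where it is high. Its differences that end at L2C are therefore given as descriptions, with no p. Terf2ip at L2C minus PN3 was 2.05 (log2) in KO and 2.04 in WT. At L2C minus E2C it was 1.86 in KO and 2.34 in WT, or 2.16 in WT without WT E2C replicate 2. It is also overlapped by 1604 bases of Gm6793 on the opposite strand, and the sources used here do not say whether counting used strand. Gm6793 ran from 2.92 to 57.2 in the oocyte and zygote libraries. At L2C, Gm6793 measured 0, 74.7 and 9.91 in KO, against 85.3, 39.7 and 12.8 in WT. Its part in the Terf2ip values was not tested.

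Tinf2, the hub of the complex (chromosome 14, 55674689 to 55681820, minus strand), had no called difference after the zygote in either genotype. It averaged 37.3 ± 1.02 scaled FPKM in KO MII oocytes (SD, n = 2) and 34.8 ± 2.21 in WT (n = 3), and 42.0 ± 2.65 in KO and 44.7 ± 1.44 in WT zygotes (n = 4 each). In E2C embryos it averaged 43.5 ± 1.97 in KO and 50.7 ± 17.4 in WT, and in L2C embryos 46.6 ± 2.06 in KO and 51.7 ± 5.21 in WT (n = 3 each). The PN3 minus MII difference of Tinf2 was 0.17 (log2) in KO (adjusted p = 0.163) and 0.35 in WT (adjusted p = 0.00126), of which the rise in WT was called. At L2C against PN3 it was 0.15 in KO (95% interval -0.03 to 0.33) and 0.20 in WT (-0.05 to 0.45), or -0.011 in WT with FPKM as deposited. Tinf2 is overlapped by 4512 bases of Gmpr2 on the opposite strand, which was at most 3.29 scaled FPKM in any library, and their reads cannot be told apart if strand was not used.

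Acd, the link to telomerase (chromosome 8, 105695860 to 105701102, minus strand), was with Terf1 and Tinf2 among the 3 highest members in oocytes and zygotes. It averaged 53.1 ± 5.55 scaled FPKM in KO and 53.1 ± 2.58 in WT zygotes (SD, n = 4 each). In E2C embryos it measured 68.6, 73.8 and 77.5 in KO, against 92.1, 94.1 and 53.9 in WT, with overlap. It rose from PN3 to E2C in KO (0.46, adjusted p = 0.00807), and the same difference was 0.54 in WT (adjusted p = 0.0667). In L2C embryos it measured 74.6, 56.7 and 53.5 in KO, against 25.4, 53.2 and 70.2 in WT, and the single WT library at 25.4 was the lowest of all 25.

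Of the overhang binders, Pot1b fell by the late 2-cell stage in both genotypes, and the called changes of Pot1a varied in direction by step. Pot1b (chromosome 17, 55651951 to 55712628, minus strand) measured 4.55 and 4.76 scaled FPKM in KO MII oocytes, against 4.21, 4.23 and 4.26 in WT. At E2C it averaged 7.85 ± 1.62 in KO and 7.56 ± 1.25 in WT (SD, n = 3 each). At L2C it measured 2.98, 2.53 and 2.40 in KO, against 2.35, 1.13 and 2.51 in WT, below all earlier libraries and with overlap between genotypes. Of all genes, 32% in KO and 30.6% in WT had every L2C library below every PN3 library.

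Pot1b fell from PN3 to L2C by 0.83 in KO (log2 difference -0.83, adjusted p = 0.000288) and by 1.09 in WT (-1.09, adjusted p = 0.00114). Its fall between E2C and L2C was also called, at -1.27 in KO and -1.54 in WT. Pot1a (chromosome 6, 25743737 to 25809246, minus strand) ranged from 4.08 to 8.44 in KO and from 5.90 to 6.17 in WT at L2C, against 7.12 to 8.60 in KO and 7.26 to 11.1 in WT at PN3. Pot1a rose from MII to PN3 in WT (0.46, adjusted p = 0.0226), a call lost without any 1 of the WT MII libraries or WT PN3 replicate 1 (adjusted p of 0.0524 to 0.0822), and was 0.37 in KO (adjusted p = 0.0512). From PN3 to E2C it rose in KO (0.56, adjusted p = 0.0225), a call lost without KO PN3 replicate 3 or 4 (0.066 and 0.0563), and was 0.11 in WT (adjusted p = 0.774). From E2C to L2C it fell in KO (-0.85, adjusted p = 0.0269), a call lost without KO E2C replicate 1 or 3 or KO L2C replicate 1 (0.0508 to 0.085), and was -0.61 in WT (adjusted p = 0.16). The L2C minus PN3 difference of Pot1a was -0.29 in KO (adjusted p = 0.225). In WT it was -0.50 (adjusted p = 0.0251), a fall whose call was lost without WT PN3 replicate 1 or 2 or WT L2C replicate 2 (adjusted p of 0.055 to 0.075). By limma, the change in the Pot1a KO effect was -0.09 from MII to PN3 (adjusted p = 0.92) and 0.21 from PN3 to L2C (adjusted p = 0.646). Neither was called, so the calls from MII to PN3 and from PN3 to L2C do not show a difference between genotypes. Whether the steps that use E2C differ was not tested. The pair share 0 of their 50-base stretches of transcript, so reads that long would not fit both.

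Tert (chromosome 13, 73626911 to 73649843, plus strand) was highest in the oocyte and lower at each later stage in the group means. It measured 12.5 and 10.7 scaled FPKM in KO MII oocytes, against 11.9, 11.4 and 12.0 in WT MII oocytes. In zygotes it measured 5.72, 6.82, 7.79 and 7.32 in KO, against 4.73, 5.30, 7.31 and 6.60 in WT. All zygote libraries were below all oocyte libraries, and the genotypes overlapped. Zygote libraries were all below oocyte libraries in 26% of genes in KO and 26.3% in WT.

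In E2C embryos Tert measured 5.55, 4.07 and 4.13 in KO, against 6.15, 2.00 and 3.96 in WT. In L2C embryos it measured 1.04, 2.51 and 2.43 in KO, against 3.60, 3.24 and 2.30 in WT, again with overlap. Tert fell from MII to PN3 in KO (log2 difference -0.67, adjusted p = 0.00769) and in WT (-0.88, adjusted p = 0.000552), but the KO call was lost without KO MII replicate 1 (adjusted p = 0.0859), with no filter (0.0595) and with a shared spread (0.168). It fell from PN3 to L2C in KO (-1.44, adjusted p = 0.000213) and in WT (-0.79, adjusted p = 0.00542). The KO effect at L2C minus that at PN3 was -0.65 for Tert (95% interval -1.27 to -0.03, adjusted p = 0.194) and was not called.

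The members called at each stage step are counted here beside the share of all genes called. From MII to PN3, 1 of 8 was called in KO (25.2% of genes tested), the fall of Tert. In WT 5 of 8 were called (40.7%), the fall of Tert and the rises of Terf2, Tinf2, Pot1a and Pot1b (0.25, adjusted p = 0.0203, a call lost without any 1 of the WT MII libraries). The differences not called were -0.01 (Terf1), 0.08 (Terf2ip), 0.19 (Pot1b) and -0.24 (Acd) in KO and -0.17 (Terf1), 0.16 (Terf2ip) and 0.02 (Acd) in WT. The KO count was 0 without KO MII replicate 1 and 2 without KO PN3 replicate 3 or 4, and the WT count was 3 without any 1 of the WT MII libraries. The 3040 genes called in KO became 1270 without KO MII replicate 1 and 1148 without KO MII replicate 2. From PN3 to E2C, with Terf1 left out, 5 of 7 were called in KO (39.7%) and 0 of 7 in WT (29.5%), where 2 of 7 had an unadjusted limma p under 0.05 (41.4% of genes). The 5 in KO were the falls of Terf2 and Tert (-0.51) and the rises of Pot1a, Pot1b (0.44) and Acd. The Pot1b call was lost in 11 of 14 alternatives and the Tert call in 8 of 14. In WT, Pot1b was 0.45 and Tert -0.54, and Terf2ip was 0.18 in KO and -0.30 in WT. The 3564 genes called in WT became 2237 to 2352 without WT PN3 replicate 1, 3 or 4, and 5069 without WT E2C replicate 2. Without WT E2C replicate 2 or without WT E2C replicate 3, 1 of 7 was called in WT, in the first case Pot1b. The KO count was 3 without KO PN3 replicate 2 and 2 without KO PN3 replicate 3 or 4.

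From E2C to L2C, again without Terf1, 5 of 7 were called in KO (50.6%) and 3 of 7 in WT (42.2%), or 4 of 6 in KO and 2 of 6 in WT leaving out Terf2ip as well. Beside the falls of Terf2, Pot1a and Pot1b, Tert fell in KO (-0.93, adjusted p = 0.016), and it was -0.24 in WT. The differences not called were 0.10 in KO and 0.08 in WT for Tinf2, and -0.26 in KO and -0.75 in WT for Acd. The KO count was 3 without KO E2C replicate 1, when Pot1a and Tert were not called. From PN3 to L2C, 5 of 8 were called in KO (74.9%) and 6 of 8 in WT (72.3%), or 4 of 7 in KO and 5 of 7 in WT leaving out Terf2ip. The difference of Acd was 0.20 in KO and -0.21 in WT and was not called. The median log2 difference of the members from PN3 to L2C was -0.56 in KO and -0.64 in WT, or -0.83 in KO and -0.79 in WT without Terf2ip, beside 0.16 in KO and 0.19 in WT over all genes tested. Terf1, Terf2, Pot1b and Tert were called lower in both genotypes.

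**Figure D2:**
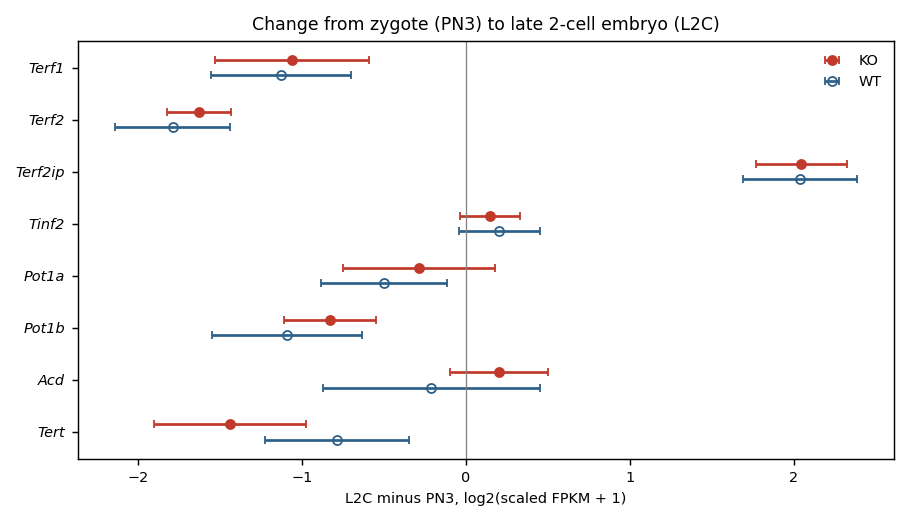
Difference between L2C embryos and PN3 zygotes (horizontal axis, log2 of scaled FPKM + 1) for each of the 8 genes, with KO as filled red points above WT as open blue points. Bars are 95% intervals from limma. Terf2ip passed the filter only through the stage where it is high, so its bars are not read as a test. Terf2ip lies at 2.05 in KO and 2.04 in WT, while Terf2 lies at -1.63 in KO and -1.79 in WT.

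Few differences of the members between KO and WT were called outside E2C. At MII, 1 of 8 was called, Acd, beside 3.51% of genes tested. Those 424 genes became 2 to 6 with any 1 library left out, 1 with a shared spread, 7 with no filter and 0 with the replicate block. Acd measured 61.8 and 63.2 scaled FPKM in KO MII oocytes, against 53.5, 50.5 and 52.6 in WT MII oocytes, with no overlap (all KO libraries were higher in 19.6% of genes). The log2 difference was 0.26 (adjusted p = 0.0455), and the call was lost whichever of the 5 libraries was left out, with adjusted p of 0.0936 to 0.192. Acd is overlapped by 2328 bases of Rltpr (Carmil2) on the opposite strand, which measured 12.2 ± 0.671 in KO (SD, n = 2) and 8.61 ± 0.359 in WT MII oocytes (n = 3), and their reads cannot be told apart if strand was not used. Terf2 was 0.20 higher in KO (adjusted p = 0.108) and was not called. The other differences at MII ran from -0.07 for Terf1 through -0.06 (Pot1a), -0.02 (Tert), 0.0049 (Terf2ip) and 0.10 (Tinf2) to 0.11 for Pot1b.

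At PN3, 0 of 8 members were called (0.778% of genes tested), and 0 had an unadjusted limma p under 0.05 (15.5% of genes). Their log2 differences ran from -0.15 for Pot1a through -0.09 (Tinf2), -0.07 (Terf2ip), 0.05 (Pot1b), 0.07 (Terf2) and 0.09 (Terf1) to 0.19 for Tert. Acd was -0.01 (95% interval -0.18 to 0.17), and the change in its KO effect from MII to PN3 was -0.26 (adjusted p = 0.383), with 0 of 8 members called in that test (0.116% of genes). At L2C, 0 of 8 were called, 0 had an unadjusted p under 0.05, and the background was 0% of genes by adjusted p and 15.9% by unadjusted p. That 0% rests on a single library: 2241 genes were called without WT L2C replicate 3, and 1873 with a shared spread, while the members called were 0 of 8 in both cases. The L2C differences ran from -0.46 for Tert (95% interval -1.15 to 0.22) to 0.41 for Acd (-0.39 to 1.20), with Tinf2 at -0.14, Terf2ip at -0.07, Pot1a at 0.06, Terf1 at 0.15, Terf2 at 0.23 and Pot1b at 0.31. Both counts of 0 held under all 7 other settings and with each library left out. The change in KO effect from PN3 to L2C was called for 0 of 8 (0.0414% of genes, 5 genes, which became 4044 without WT L2C replicate 3 with 0 of 8 members among them), and 1 of 8, Tert, had an unadjusted p under 0.05 (23.6% of genes).

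The L2C intervals were wide. For Terf1 the interval ran from -0.47 to 0.77, and for Terf2 from -0.30 to 0.76 (log2). At E2C, the other members had log2 differences of -0.42 (Terf2), 0.41 (Terf2ip), -0.16 (Tinf2), 0.30 (Pot1a), 0.04 (Pot1b), -0.08 (Acd) and 0.23 (Tert), and the genotypes overlapped for each. Without WT E2C replicate 2, the signs turned for Tinf2 (0.08), Pot1b (-0.03), Acd (0.05) and Tert (-0.10). The median over the 8 members at E2C was 0.13, beside 0.05 over all genes tested.

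**Figure D3:**
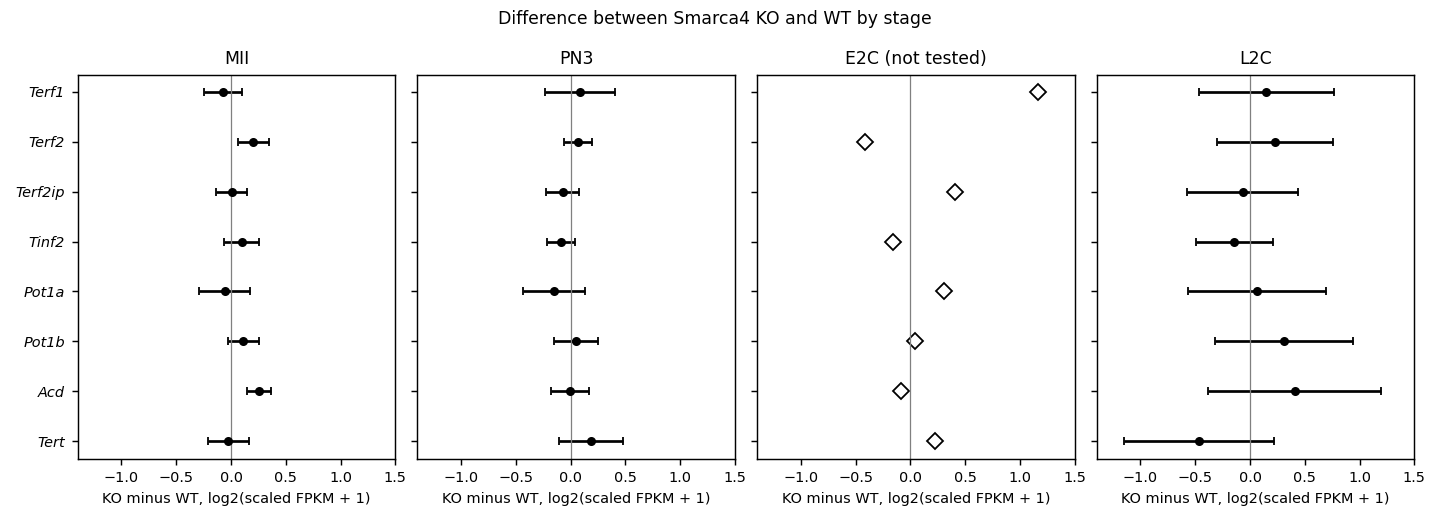
KO minus WT difference (horizontal axis, log2 of scaled FPKM + 1) for each of the 8 genes, with 1 panel per stage. Points with bars are differences with 95% intervals from limma, and open diamonds at E2C are differences with no test. Terf1 at E2C lies at 1.17, and Acd at MII, at 0.26, is the called difference.

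Set against each other within a library, the transcripts of the complex took different shares at different stages. The summed level of the 7 shelterin genes was 154 ± 18.1 scaled FPKM in KO and 143 ± 19.6 in WT L2C embryos (SD, n = 3 each), against 183 ± 5.77 in KO (n = 2) and 169.6 ± 0.269 in WT MII oocytes (n = 3). Terf1 made up 27.4% of that sum in KO and 31.1% in WT MII oocytes, 12.3% in KO and 6.19% in WT E2C embryos, and 15.3% in KO and 15.8% in WT L2C embryos. Its E2C shares rest on the contrast used to choose Terf1. By WT E2C library they were 5.35%, 2.00% (replicate 2) and 11.2%. Acd was the largest share at E2C, at 41.8% in KO and 43.8% in WT. Tinf2 made up 30.5% in KO and 36.5% in WT at L2C.

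The ratio of Terf1 to Terf2 was lowest at E2C. It was 0.952, 1.35 and 2.07 in KO E2C embryos, against 0.444, 0.186 and 0.900 in WT E2C embryos, and rests on the contrast used to choose Terf1. At L2C it was 3.22 ± 0.656 in KO and 3.50 ± 0.900 in WT (SD, n = 3 each), and at PN3 2.06 ± 0.516 in KO and 1.99 ± 0.159 in WT (n = 4 each). Both binders were lower at L2C than at PN3, Terf2 by more. The ratio of Terf2ip to Terf2 was 0.705 ± 0.0668 in KO and 0.925 ± 0.322 in WT at L2C, against 0.0200 ± 0.00356 in KO and 0.0243 ± 0.00451 in WT at PN3. The ratio of Pot1a to Pot1b was 2.58 ± 1.06 in KO and 3.42 ± 1.56 in WT at L2C, against 1.47 ± 0.102 in KO and 1.73 ± 0.363 in WT at PN3. These ratios were not tested.

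**Figure D4:**
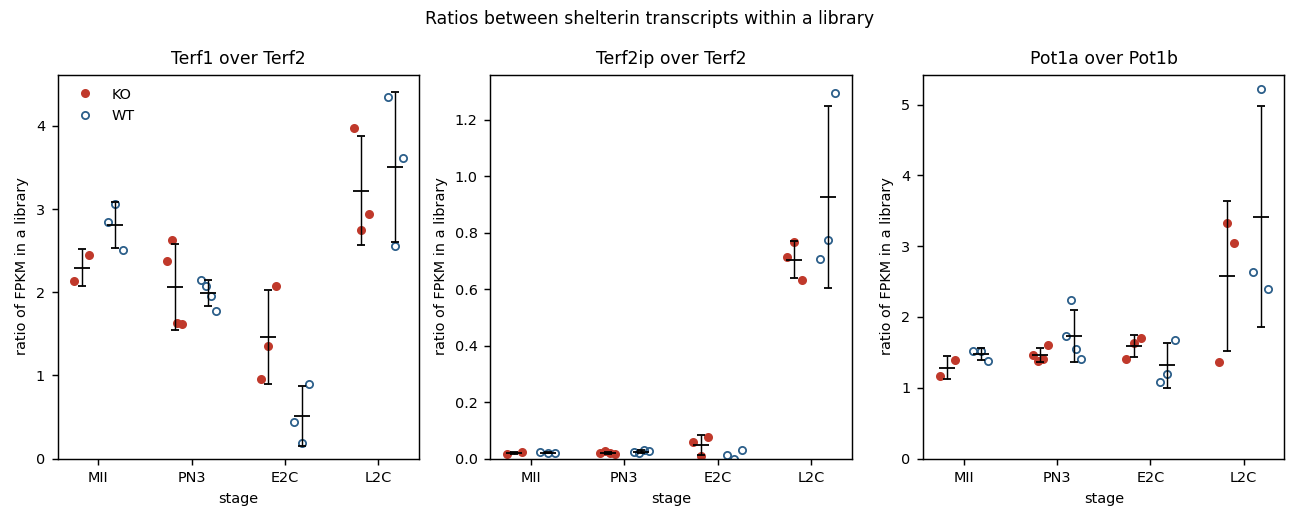
Ratio of scaled FPKM between pairs of shelterin transcripts within each library (vertical axis, linear from 0), by stage, with KO as filled red points left of WT as open blue points. Black bars are the mean and SD of a group, left out where 1 library is at 0. Terf1 over Terf2 lies between 0.952 and 2.07 in KO and between 0.186 and 0.900 in WT at E2C, and Terf2ip over Terf2 lies above 0.6 only at L2C.

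The order of the levels shifted with stage. In zygotes of both genotypes the order ran Acd, Terf1, Tinf2, Terf2, Pot1a, Tert, Pot1b and Terf2ip, with overlapping ranges among the first 3 and between neighbours among Pot1a, Tert and Pot1b. At E2C, Terf1 stood directly above Terf2 in KO and directly below it in WT, and the ranges of the pair overlapped in KO but not in WT. That order rests on the contrast used to choose Terf1 and is a description. At L2C, Terf2ip stood directly below Pot1a in both genotypes, and its range overlapped that of Pot1a. The last place was held by Tert in KO and Pot1b in WT, and each overlapped its neighbour.

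Around shelterin, 77 further telomere genes passed the filter, in 6 lists of telomerase assembly, the CST complex with lagging-strand fill-in, shelterin-associated factors, other telomere DNA binding proteins, telomere chromatin, and meiotic telomere attachment. Between KO and WT, 0 of 77 were called by limma at MII, PN3 or L2C, where 12 (15.6%), 3 (3.90%) and 24 (31.2%) had an unadjusted p under 0.05 in that stage order, beside 24.1%, 15.5% and 15.9% of all genes. At L2C, 23 of 77 were called without WT L2C replicate 3 and 19 with a shared spread. The differences farthest from 0 at MII were those of Hnrnpa1, an RNA-binding protein that also binds telomere repeats (-0.44, adjusted p = 0.0669), and Terc, the RNA template of telomerase (0.35, adjusted p = 0.473). At PN3 they were those of Hnrnpa1 (-0.59, adjusted p = 0.0858) and Nop10, a subunit of the box H/ACA complex that holds Terc (0.32, adjusted p = 0.45). At L2C they were those of Gnl3l, a nucleolar GTPase that binds TRF1 in human cells (-1.21, adjusted p = 0.295), and Hnrnpa1 (1.46, adjusted p = 0.329). The 16 telomerase assembly genes had a median of -0.41 at L2C, with 4 of 16 above 0, beside -0.05 over all genes.

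At E2C the list genes were not tested. The lowest KO minus WT values were those of Nop10, at 5.95, 4.43 and 4.78 scaled FPKM in KO against 7.27, 15.5 and 7.81 in WT, and Daxx, the histone chaperone that works with ATRX at telomeres, at 6.41, 8.22 and 12.9 in KO against 19.5, 17.0 and 9.50 in WT. The highest were those of Cdk2, a cell-cycle kinase found at meiotic telomeres, at 3.60, 4.37 and 5.92 in KO against 3.52, 0 and 5.53 in WT, and Ercc1, a nuclease subunit, at 1.76, 1.65 and 0.707 in KO against 0.202, 0 and 0.940 in WT. Nop10 did not overlap between genotypes (all KO libraries were lower in 4.38% of genes), while Daxx, Cdk2 and Ercc1 did. Nop10 was named as the lowest list gene in this same contrast, so this is a description. The values at 0 were those of WT E2C replicate 2. The log2 differences were -0.82 (Nop10), -0.68 (Daxx), 0.84 (Cdk2) and 0.81 (Ercc1), and without that library -0.50, -0.58, 0.03 and 0.60. The highest 2 were then Xrcc6 (0.79) and Nhp2 (0.73), and the lowest 2 were still Daxx and Nop10, an alternative chosen after the data were seen.

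From PN3 to L2C, 39 of the 77 list genes rose and 20 fell in KO (76.6% called, beside 74.9% of all genes), and 38 rose and 23 fell in WT (79.2%, beside 72.3%), shares near those of all genes. Of the 16 telomerase assembly genes, 9 rose and 3 fell in KO and 11 rose and 2 fell in WT, with a median of 1.01 in KO and 1.26 in WT, while Tert itself fell. Some list genes, like Terf2ip, passed the filter mainly through L2C, where they are high. Among them, Tgs1 was at most 0.532 and Gnl3l at most 0.551 scaled FPKM in zygotes. The counts of rises that end at L2C are therefore descriptions. The farthest changes were the fall of Xrcc6 (Ku70) in KO (-2.65) and in WT (-3.19), the rise of Cbx3 (HP1 gamma) in KO (4.13) and the rise of Tgs1, which modifies the cap of the telomerase RNA in human cells, in WT (4.61). From E2C to L2C, 33 rose and 10 fell in KO (55.8%, beside 50.6% of all genes) and 30 rose and 12 fell in WT (54.5%, beside 42.2%), with Pinx1, a telomerase inhibitor, lowest in both (-1.69 in KO and -1.87 in WT) and Cbx3 highest in both (3.88 in KO and 4.60 in WT).

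From PN3 to E2C, 18 list genes rose and 23 fell in KO (53.2%, beside 39.7% of all genes), and 13 rose and 19 fell in WT (41.6%, beside 29.5%). The WT count of 32 was 19 without any 1 of the WT PN3 libraries, and 38 without WT E2C replicate 2. Xpa, a damage sensor of nucleotide excision repair, was lowest in both (-2.01 in KO and -2.40 in WT), and Hnrnpa1 was highest in KO (1.07) and Nop10 in WT (1.35). From MII to PN3, 3 rose and 19 fell in KO (28.6%, beside 25.2%), and 12 rose and 24 fell in WT (46.8%, beside 40.7%). The KO count of 22 was 14 without KO MII replicate 1 and 11 without KO MII replicate 2. Ccdc155, which ties meiotic telomeres to the nuclear envelope, was lowest in both (-1.54 in KO and -1.88 in WT), and Cbx1 was highest in KO (0.47) and Slx4, a nuclease scaffold, in WT (0.42).

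Marker lists describe the material beside these values. All 9 oocyte markers passed the filter, and their summed level was 1058 to 1349 in KO and 912 to 1351 in WT E2C embryos. Of the 9, 8 had a higher mean in KO at E2C, as Terf1 did, with a median log2 difference of 0.16 (0.05 over all genes) and Figla farthest at 1.67. Without WT E2C replicate 2, 7 of 9 were higher, with a median of 0.096. At MII 9 of 9 were higher in KO (median 0.14), at PN3 8 of 9 (0.24) and at L2C 7 of 9 (0.39). The direction of this list was thus not particular to E2C. The part of this list in the Terf1 difference was not tested. All 10 markers of the 2-cell embryo, Zscan4 and Dux among them, were above 0 at E2C in both genotypes, and their sum was 75.3 to 166 in KO against 185.7 to 346 in WT, with no overlap. This list differed at E2C alongside Terf1, in the other direction, and its part in the Terf1 difference was not tested. Between KO and WT, 8 of the 10 were also lower in KO at PN3 (median log2 difference -0.16). At L2C all 10 were higher in KO (median 0.47), and none was called at either stage. Of 12 cumulus and granulosa markers, 2 passed the filter, Cyp19a1 and Kitl, and the list summed to at most 7.14 in any library. At E2C, 3 of the 12 were at 0 in all KO libraries and 6 in all WT libraries. Sperm markers summed to 2.07 to 20.8 in KO and 1.69 to 3.15 in WT E2C embryos, and blood markers to at most 0.426 in any library, with Hba-a1 and Hbb-bs at 0 in all.

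The 5 genes whose group means were most like those of Terf1, by Pearson correlation over the 8 group means, were Swap70 (r = 0.994), Psma1 (0.989), Nbn (0.988), Pradc1 (0.987) and Tmem258 (0.986). The points share libraries and scaling, and the E2C values that chose Terf1 are among them. Swap70 averaged 6.48 ± 2.16 in KO and 3.91 ± 0.821 in WT E2C embryos, and Psma1, a proteasome subunit, averaged 10.9 ± 2.37 in KO and 5.04 ± 1.88 in WT E2C embryos (SD, n = 3 each). Nbn, a subunit of the MRN break sensor and one of the shelterin-associated list, averaged 5.02 ± 1.68 in KO and 3.30 ± 0.0372 in WT. Pradc1 measured 6.67, 6.93 and 8.23 in KO against 2.60, 0 and 5.89 in WT E2C embryos. Tmem258 measured 4.29, 3.66 and 8.68 in KO against 3.45, 0 and 10.8 in WT E2C embryos, with overlap. Both values at 0 were those of WT E2C replicate 2. Among the members themselves, the group means of Terf2 and Terf2ip had r = -0.96, and those of Terf1 and Tert r = 0.72, as descriptions over the same 8 points.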

How the data were processed

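The deposited files hold FPKM values per gene symbol, 1 file per library, made by the authors. Per the labels' protocols, a stranded kit with removal of ribosomal RNA was used and reads were paired at 150 bp. Per the submitters' processing notes, HTSeq, StringTie, HISAT2 and Trim Galore 0.4.5 were among the tools and GRCm38 (mm10) was the build. Their roles, and any use of strand in counting, are not stated there. Low FPKM values were not whole multiples of 1 read, so depth per library is unknown and precision rests on the number of libraries.

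Libraries were rescaled by median ratios over the 6492 genes that reached an FPKM of 1 in all 25. The 12079 genes that reached an FPKM of 1 in 3 or more libraries were tested. Each comparison was fitted on its own groups alone with limma 3.58.1 (R 4.3.3) on log2(scaled FPKM + 1), with a variance trend and robust prior, and called at a Benjamini-Hochberg adjusted p under 0.05. The alternatives were a spread shared by all 25 libraries, a pseudocount of 0.1, no filter, FPKM as deposited, TPM, stage weights, the replicate number as a block, and leaving out each library. The fit was tested on simulated data.

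The members and lists were chosen with earlier results of these data known. All 8 members are named in each comparison between 2 groups. For the tests of the change in KO effect, only some are named. Of the list genes, those with the farthest differences in each direction are named (2 in each direction at E2C), with the 5 genes most like Terf1. Coordinates are from GENCODE M21 (GRCm38) and promoters from RefSeq (GRCm38.p6), which matched 7 of 8 members, all but Terf1. Python 3.11.15, pandas 2.3.3 and matplotlib 3.10.9 were used.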

Additional observations from a re-analysis of the deposited data

Results flagged for a closer look

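Of 16 combinations of a member and a PN3 group, the groups with 4 libraries, 1 had a library set apart from the other 3 by Dixon's criterion at its 95% critical value. Terf2 was 23.25 scaled FPKM in KO PN3 replicate 2, against 25.12 to 25.40 in the other 3 KO zygote libraries. Chance sets apart about 1 group in 20. No KO effect differed between stages by the tests of the difference, which left out E2C.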

How the results depend on the processing

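Of the 31 called differences of single members, 18 kept their call in every alternative, with each library left out included, and 0 of the 31 changed sign. Terf2ip, which passed the filter only through the stage where it is high, gave 4 of both counts, and without it 14 of 27 kept their call. The 14 were all called differences of Terf1 and Pot1b that end at L2C, those of Terf2 that end at E2C or L2C, and those of Tert from MII to PN3 in WT and from PN3 to L2C in both genotypes. The 1 member called between KO and WT at MII became 0 with no filter, with FPKM as deposited and with a shared spread, and 2 with stage weights. With a shared spread the counts were 0 (MII to PN3, KO), 2 (PN3 to E2C, KO), 1 (MII to PN3, WT), 1 (PN3 to E2C, WT) and 5 (E2C to L2C, WT). With FPKM as deposited they were 2 (MII to PN3, KO) and 1 (PN3 to E2C, WT). With no filter they were 0, 2 and 3 for the successive steps in KO, and with stage weights 5, 1 and 3. From MII to PN3 in KO the count was 2 with a pseudocount of 0.1 and with TPM. With FPKM as deposited the median of all genes moved from PN3 to E2C to -0.10 in KO (0.0022 after rescaling) and -0.20 in WT (-0.052), and from PN3 to L2C to 0.043 in KO (0.16) and 0.024 in WT (0.19). The cause of these shifts was not tested. Leaving out 1 library gave 0 to 0 (KO against WT, MII), 0 to 2 (MII to PN3, KO), 2 to 5 (PN3 to E2C, KO), 3 to 5 (E2C to L2C, KO), 3 to 7 (MII to PN3, WT) and 0 to 1 (PN3 to E2C, WT), and the Terf1 difference at E2C was 0.68 to 1.58.

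Replicate numbers were not used as pairs in the main fit. In no comparison with 3 or more pairs did every pair of deviations correlate above 0.1, but this cannot exclude pairing. Between KO and WT at PN3, 3 of 4 pairs were above 0.1 (r of 0.0129 to 0.428). There, 472 genes were called with the replicate number as a block, against 94 without it. At E2C all 3 pairs correlated best with their own number, a hint from the data only. With the replicate number as a block, the counts were 0 (KO against WT, MII), 2 (MII to PN3, KO) and 2 (PN3 to E2C, KO), and the other counts stayed within 1.5 times. The block turned the sign of Terf2ip between KO and WT at MII (-0.00087) and of Terf1 from MII to PN3 in KO (0.26).

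Other signs that turned belonged to differences that were not called. FPKM as deposited gave -0.010 for Terf2ip between KO and WT at MII, -0.093 for Tinf2 and -0.091 for Pot1a from PN3 to E2C in WT, -0.011 for Tinf2 from PN3 to L2C in WT, 0.017 for Terf1 from MII to PN3 in KO, -0.10 for Tinf2 from PN3 to E2C in KO, and 0.012 for the change in the Tinf2 KO effect from PN3 to L2C. TPM gave 0.040 for Terf1 from MII to PN3 and -0.016 for Tinf2 from PN3 to E2C, both in KO. With 1 library left out, KO against WT at MII ran from -0.17 to 0.018 (Terf1), -0.059 to 0.069 (Terf2ip), -0.19 to 0.080 (Pot1a) and -0.13 to 0.082 (Tert). At PN3 it ran from -0.011 to 0.18 (Terf1), -0.0032 to 0.099 (Pot1b) and -0.070 to 0.043 (Acd). At L2C it ran from -0.052 to 0.38 (Terf1), -0.15 to 0.027 (Terf2ip), -0.12 to 0.33 (Pot1a) and -0.0049 to 0.71 (Acd). In KO, Terf1 from MII to PN3 ran from -0.11 to 0.087. In WT, the stage ranges were -0.0050 to 0.051 (Acd, MII to PN3), -0.12 to 0.37 (Tinf2) and -0.18 to 0.27 (Pot1a) from PN3 to E2C, -0.17 to 0.32 (Tinf2) and -0.57 to 0.055 (Tert) from E2C to L2C, and -0.51 to 0.20 (Acd, PN3 to L2C). The change in KO effect ran from -0.23 to 0.044 (Pot1a, MII to PN3), and from PN3 to L2C from -0.14 to 0.29 (Terf1), -0.0018 to 0.27 (Terf2), -0.077 to 0.10 (Terf2ip) and -0.13 to 0.013 (Tinf2).

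The unknown read depth limits low values, such as Terf2ip before L2C, and no counting error is given for them.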
